A study of Mus musculus with 24 samples.

Results

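The Zfp genes are the mouse genes named zinc finger protein followed by a number, and most of them code for proteins that bind DNA through repeated zinc-binding fingers. Members were taken from the raw count table by 2 conditions, a symbol made of Zfp and digits only and a mean of at least 5 CPM (counts scaled to a common library size) over all 24 samples. This gave 290 members of the 370 Zfp genes in the table, which lists 39253 genes. All 290 members were among the 13901 genes tested, so that none was lost to the filter on low counts. The mean level chose the members, and levels are therefore given as a description. The rule uses no comparison between groups, but it was set with earlier results of these data known. The group is defined by its name and its level, and no half-life of an mRNA was measured here, so that the description of these mRNAs as short-lived cannot be checked with these samples.

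RNA-seq was conducted on 24 samples of Neuro2A cells, a mouse neuroblast line of wild-type genotype, in 8 groups of 3. In 6 groups cells were transiently transfected with a plasmid in which the CAG promoter drives an RNA-targeting effector, RfxCas13d, HiFi-RfxCas13d or DiCas7-11, and the U6 promoter drives either the mATXN2-targeting crRNA, directed against the ataxin-2 mRNA, or a non-targeted (NTG) crRNA. The remaining groups were untransfected cells and a positive control, which received an antisense oligonucleotide (ASO) that targets ataxin-2. RNA was collected 48 hr after transfection. No sort for transfected cells is described for RNA-seq, so that each transfected sample is taken to be a mixture of cells with and without the plasmid. The groups used here hold no cells given a control oligonucleotide or transfection reagent alone, so the ASO was compared with untransfected cells, and the effect of the ASO and that of its delivery cannot be told apart. The column names of the count table call the 2 crRNA arms EV and G12 where the sample labels say NTG and G10. The labels' names are used, and what the NTG arm received and which crRNA the mATXN2 arm received are therefore not certain. The labels do not say whether the 3 samples of a group were separate cultures, whereas the study's methods describe the experiments in cultured cells as independent biological replication.

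Zinc finger proteins of the C2H2 type are the largest family of DNA-binding proteins in mammals. Many of them carry a KRAB domain near the start of the protein. This domain recruits Trim28, which in turn brings the histone methyltransferase Setdb1 and the heterochromatin proteins to the bound site. KRAB zinc finger genes stand in long tandem clusters that grew by duplication, and a large part of them keeps transposable elements and imprinted genes silent. Other Zfp genes have no KRAB domain and work in RNA decay, ribosome quality control, neural development or chromatin complexes. Transcripts of many zinc finger genes are known to be scarce and to turn over quickly.

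The libraries held 12665725 to 22504999 counts, and the 3 ASO libraries were the deepest (21874644 to 22504999, against 12665725 to 19857305 in the other 21), so that depth and the ASO cannot be told apart. Pairs of replicates differed by 1.68 to 5.58 times counting noise, with the highest value among the NTG samples of DiCas7-11. The targeted gene, Atxn2, stood at 123, 125 and 121 CPM in untransfected cells and at 54.1, 52.9 and 48.9 CPM with the ASO, which is 57.8% lower (edgeR's adjusted p = 1.65e-19, n = 3 per group). Against the NTG arm of the same effector, Atxn2 was 14.8% lower for HiFi-RfxCas13d and 13% lower for DiCas7-11 (edgeR's adjusted p = 0.00157 and 0.00557). It did not pass the test for RfxCas13d (edgeR's adjusted p = 0.178), with 116, 112 and 113 CPM against 120, 122 and 125 CPM with NTG. Of the neuroblast markers, Hand2, Tubb3, Gata2, Chga, Phox2a and Isl1 had mean levels of 32.6 to 385 CPM, Stmn2 and Gata3 were low, and Nefl and Nefm were at or near 0. The 11 markers of other cells summed to 21.8 to 31.2 CPM in every group, and Ptprc, Lyz2, Col1a2 and Cdh5 were at or near 0.

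The members were expressed at low levels. Their median of mean CPM was 20.5 (interquartile range 12.1 to 39.9), against 44.8 for the 10319 tested genes above the same mean of 5 CPM. Per kilobase of transcript, which allows levels of different genes to be compared, the median was 6.34 CPM per kb over the 286 members with a known length and 14.8 CPM per kb over the other set. Together the members held about 1% of all counts, from 0.98% in untransfected cells to 1.08% in an ASO library. The highest member was Zfp106, which binds RNA, with a mean of 404 CPM (44.5 CPM per kb). It was followed by Zfp706 at 318 CPM (72 CPM per kb), Zfp638 at 262 CPM (42.3 CPM per kb), Zfp207, which binds the spindle checkpoint protein Bub3, at 218 CPM (140 CPM per kb) and Zfp91 at 184 CPM (33.2 CPM per kb). Per kilobase, Zfp207 was the highest of these 5. Just inside the threshold were Zfp36 (5.03 CPM), Zfp551 (5.08 CPM) and Zfp418 (5.09 CPM), and just outside it were Zfp771 (4.87 CPM), Zfp810 (4.8 CPM) and Zfp953 (4.79 CPM). Without the ASO samples, Zfp36 and Zfp551 would have been under the threshold, with means of 4.93 and 4.95 CPM over the other 21 samples. So would Zfp36 without the mATXN2 samples of RfxCas13d (4.91 CPM) and Zfp551 without the NTG samples of HiFi-RfxCas13d (4.99 CPM).

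Within a group, the standard deviation of log2 CPM had a median of 0.095 over the members and 0.068 over the tested genes above 5 CPM. Between groups the members moved little. The highest group mean divided by the lowest had a median of 1.19 and reached 1.71 in Zfp30. It was over 1.5 in 8 members and over 2 in 0. The ASO was the highest of the 8 groups for 135 members and the lowest for 26, whereas untransfected cells were the highest for 37 and the lowest for 72. In 139 of the 290 members no difference passed the test in any of 14 comparisons. The ratios, ranks and counts across groups were not taken over all tested genes and cannot be read as particular to the members.

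Composition and position of the members were not used by the rule. Their transcripts had a median GC content of 44.6% (50.3% for tested genes above 5 CPM), a median length of 3378 bases (3072 bases) and a median coding length of 1740 bases (1443 bases). A C2H2 finger pattern in the translated coding sequence counted a median of 11 fingers per member and up to 36 in Zfp142. A pattern for the KRAB domain was found in 154 members and not in 131, and 5 members had no matched coding sequence. The 154 KRAB members had a median of 17.4 CPM, 12 fingers and 41.1% GC, and the other 131 had 31.1 CPM, 8 fingers and 49.8% GC. Shares by chromosome were taken over the 286 members and the 10014 tested genes above 5 CPM with a matched transcript. Of these members, 69 (24.1%) lay on chromosome 7, which holds 7.3% of these tested genes. Chromosome 17 held 39 (13.6%, against 5.07%) and chromosome 13 held 23 (8.04%, against 3.69%). Runs of at least 5 members with no more than 2 other genes between neighbours took in 92 of all 290 members (31.7%) in 11 runs.

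Sequences upstream of the start site are shown because some members, several of them in these runs, share letters there. RefSeq's table for GRCm38.p6 holds an entry for 241 members and for 10847 tested genes, and the 250 bases before the start were searched on both strands. The run of letters ACTACATTTCCCA occurred in 20 of 241 members (8.3%) and in 105 of 10847 tested genes (0.968%). It was chosen as the run of 13 bases held by most members when their promoters were scanned, so that its frequency among members is a description. The CCAAT box (CCAAT) was in 51% of members and 37.3% of tested genes, the GC box (GGGCGG) in 43.2% and 57%, the core of an ETS site (CCGGAAG) in 18.3% and 13.7%, and the TATA box (TATAAA) in 6.22% and 6.51%. The 20 matches to ACTACATTTCCCA stood 11 to 218 bases before the start (median 49.5), 15 of them on the opposite strand, and their genes were on chromosome 7 in 10 cases and on chromosome 13 in 7. The stretches below are 90 bases long, run 5′ to 3′ on the strand of the gene, and carry the match in capitals. They come from members called with the ASO, at chr13:67332561-67332650 (Zfp595, minus strand), chr13:67128137-67128226 (Zfp759, plus), chr7:29768462-29768551 (Zfp84, plus), chr7:29859882-29859971 (Zfp420, plus), chr7:30090535-30090624 (Zfp566, minus), chr5:110110002-110110091 (Zfp605, plus) and chr7:30094986-30095075 (Zfp260, plus).
Zfp595: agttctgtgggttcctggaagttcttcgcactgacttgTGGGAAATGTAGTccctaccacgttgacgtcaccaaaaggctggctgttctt
Zfp759: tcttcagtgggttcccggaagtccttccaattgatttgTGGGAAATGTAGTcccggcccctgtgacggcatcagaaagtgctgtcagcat
Zfp84: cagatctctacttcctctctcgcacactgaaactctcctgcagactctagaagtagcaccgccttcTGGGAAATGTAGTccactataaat
Zfp420: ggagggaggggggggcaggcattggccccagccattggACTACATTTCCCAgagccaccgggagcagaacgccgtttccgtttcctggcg
Zfp566: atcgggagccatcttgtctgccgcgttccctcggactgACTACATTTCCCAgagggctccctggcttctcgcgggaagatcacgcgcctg
Zfp605: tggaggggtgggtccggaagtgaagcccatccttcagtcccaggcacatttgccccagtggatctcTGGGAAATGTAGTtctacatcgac
Zfp260: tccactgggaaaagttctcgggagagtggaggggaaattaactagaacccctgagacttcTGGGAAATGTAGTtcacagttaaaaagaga

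Zfp595 and Zfp759 share further letters around the match, and both belong to the same run on chromosome 13. With the ASO, 9 of the 20 members that hold the letters were higher (45%, against 34.8% of the members without them) and 1 was lower, Zfp260, and their median log2 difference was 0.14, against 0.10 for the members without them. The 85 other tested genes that hold the letters had a median of -0.0036, and 19 of them were higher (22.4%, near the 21% of all tested genes). These differences were not tested. A match is a run of letters and says nothing of what binds there.

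**Figure D1:**
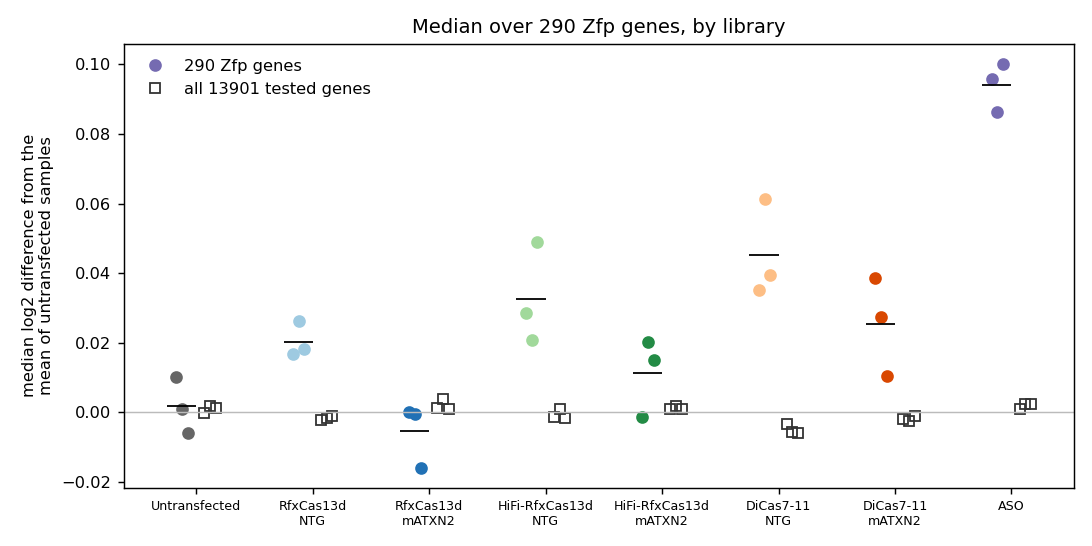
Each filled point is 1 library and gives the median, over the 290 Zfp genes, of the log2 difference from the mean of the 3 untransfected samples (vertical axis); open squares give the same median over all 13901 tested genes and black bars the group means. The 3 ASO libraries lie at 0.086 to 0.10, above the other 21 libraries at -0.016 to 0.061, while the squares stay near 0.

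As a class, the Zfp genes were highest in the ASO libraries. The median log2 difference from the mean of untransfected cells was 0.096, 0.086 and 0.10 in the 3 ASO libraries, which is a group mean of 0.094 ± 0.007 (SD, n = 3). Untransfected libraries had 0.010, 0.001 and -0.0059. In the plot of class medians by library, no library of another group reached the ASO libraries.

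Among transfected cells, the NTG arms had group means of 0.020 ± 0.005 (RfxCas13d), 0.033 ± 0.015 (HiFi-RfxCas13d) and 0.045 ± 0.014 (DiCas7-11), and the mATXN2 arms had -0.005 ± 0.009, 0.011 ± 0.011 and 0.026 ± 0.014 in the same order (SD, n = 3 for each). Each NTG mean was thus higher than the mATXN2 mean of its effector, and the libraries of the 2 arms did not overlap for RfxCas13d or HiFi-RfxCas13d but did for DiCas7-11. The summed level of all members was also highest in the ASO group, with 10708 CPM, whereas its lowest group was untransfected cells (9848 CPM), just under the mATXN2 arm of RfxCas13d (9878 CPM), which had the lowest class median. In bulk samples, a difference in the share of cells that express a gene and one in RNA per cell cannot be told apart. The class medians carry no test, since the members were chosen with results of these data known.

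The comparison of ASO with untransfected cells asks how an oligonucleotide that lowers ataxin-2 changes the transcriptome. Of the 290 members, 100 were higher and 26 lower by edgeR's quasi-likelihood test with Benjamini-Hochberg adjustment at 0.05, the test meant by every adjusted p given here. That is 43.4% of members, and 42.7% of all tested genes passed, so the share that changed was near the background. The direction was not. Higher members made up 34.5% against 21% of all tested genes, and lower members 8.97% against 21.7%. Zfp36 and Zfp551, under 5 CPM without the ASO samples, are counted among the higher members. Of the members, 71.4% had a positive log2 difference (49.6% of all tested genes), and the median was 0.097 (interquartile range -0.026 to 0.23), against -0.0021 (-0.17 to 0.17) for all tested genes. Among the 100 higher members the log2 difference ran from 0.09 to 0.69 with a median of 0.31, that is 24.3% higher, and the 3 ASO samples lay above the 3 untransfected samples in 97 of them. Among the 26 lower members it ran from -0.41 to -0.10 with a median of -0.25, and the samples did not overlap in 24. Over all members, called or not, the samples did not overlap in 118 on the higher side (40.7%, against 25.8% of tested genes) and in 34 on the lower side (11.7%, against 26.1%).

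**Figure D2:**
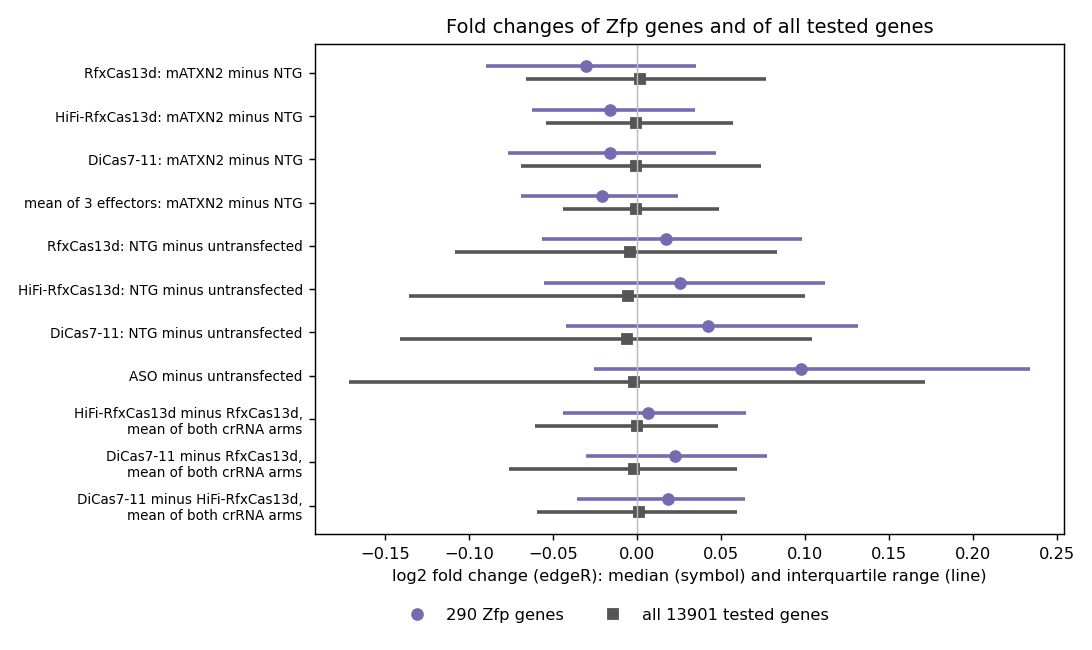
For each of 11 comparisons (rows), the median and the interquartile range of edgeR's log2 fold change (horizontal axis) are given for the 290 Zfp genes (circles) and for all 13901 tested genes (squares). The circle for the ASO lies at 0.097 and its square at -0.0021, and the circles of the 4 crRNA comparisons lie below 0, between -0.030 and -0.016.

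In Zfp202, Zfp882 and Zfp30, 3 of the 4 members with the largest rises, the ASO samples lay above all 21 other samples. Zfp202, whose human counterpart represses genes of lipid metabolism, stood at 15.7, 16 and 15.9 CPM in untransfected cells and at 25.7, 24.4 and 26.7 CPM with the ASO. All 18 transfected samples lay between 16.6 and 19.9 CPM, below each ASO sample. The log2 difference was 0.69 with a standard error of 0.06 (edgeR's adjusted p = 4.05e-10, n = 3 per group). Zfp882, with a KRAB pattern and 13 fingers, had 9.82, 8.63 and 10.2 CPM in untransfected cells and 15.9, 15.5 and 14.5 CPM with the ASO. The groups did not overlap, and the rise was 0.69 ± 0.09 on the log2 scale (SE, edgeR's adjusted p = 3.9e-07). Zfp30 had 5.84, 6.11 and 5.81 CPM against 9.56, 8.94 and 9.41 CPM, with no overlap and a log2 difference of 0.65 ± 0.11 (SE, edgeR's adjusted p = 3.52e-05). Zfp455, in a cluster on chromosome 13, had 6.16, 4.97 and 6.53 CPM against 9.34, 9.46 and 8.65 CPM. Its 3 ASO samples were above the 3 untransfected ones, by 0.65 ± 0.12 on the log2 scale (SE, edgeR's adjusted p = 4.14e-05), and 1 NTG sample of RfxCas13d lay among them at 8.68 CPM.

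The largest falls were smaller than the largest rises. Zfp362 had 41.7, 35.5 and 33.9 CPM in untransfected cells and 27.8, 29.5 and 26.6 CPM with the ASO, where all 3 samples were lower, and it fell by 0.41 on the log2 scale (edgeR's adjusted p = 1.02e-05). Zfp395, first described as a protein that binds the promoter of the huntingtin gene, had 30.7, 31.2 and 31.8 CPM against 24.8, 22.2 and 24 CPM, with no overlap. It fell by 0.40 (edgeR's adjusted p = 5.16e-06). Zfp949 had 8.79, 8.57 and 9.32 CPM against 6.87, 6.67 and 6.87 CPM and fell by 0.38 (edgeR's adjusted p = 0.00399). Zfp316 had 26.1, 26.6 and 26.8 CPM against 21.1, 20.4 and 20.2 CPM and fell by 0.36 (edgeR's adjusted p = 1.79e-05). In Zfp395, Zfp949 and Zfp316, all 18 transfected samples also lay below the 3 untransfected ones, at up to 29.9, 8.37 and 25.1 CPM.

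**Figure D3:**
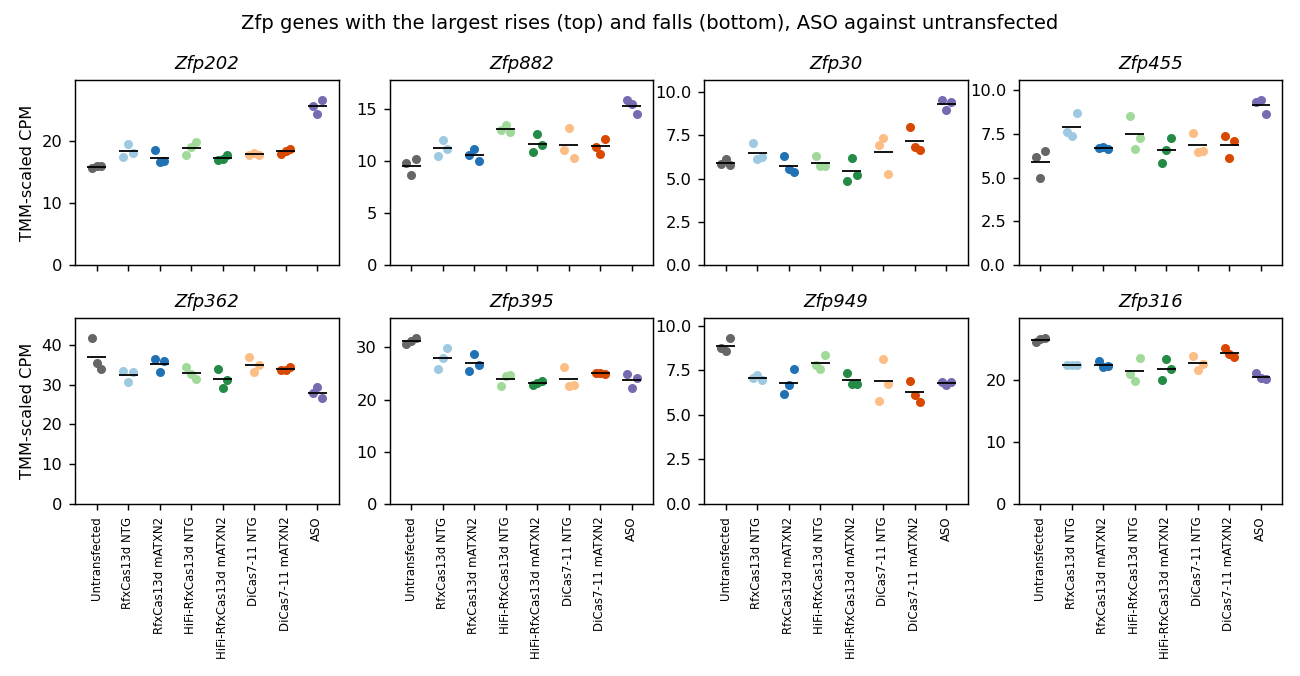
TMM-scaled CPM (vertical axes, from 0) of the 4 Zfp genes with the largest rises and the 4 with the largest falls in ASO against untransfected cells, with 1 point per sample and a bar at each group mean for all 8 groups (horizontal axes). Zfp202, Zfp882, Zfp30 and Zfp455 have their highest group means with the ASO, whereas the transfected samples of Zfp395, Zfp949 and Zfp316 all lie below the untransfected ones.

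The members were also grouped by role, and the counts of each list stand against 34.5% higher and 8.97% lower among all members and 21% and 21.7% among all tested genes. Of 9 Zfp genes of RNA metabolism and translation, 4 rose and 0 fell by edgeR (44.4% called, median log2 difference 0.091). Zfp36 is counted among the 4, so that this share is not read as a result. Zfp36, which codes for tristetraprolin, a protein that speeds decay of mRNAs with AU-rich elements, had 2.82, 4.49 and 3.82 CPM in untransfected cells and 5.35, 5.28 and 6.42 CPM with the ASO (log2 difference 0.61). The groups did not overlap. Zfp36 was under 5 CPM without the ASO samples (4.93 CPM) and also without the mATXN2 samples of RfxCas13d (4.91 CPM). Its rise is therefore a description and no support for the list. Zfp598, a ubiquitin ligase that marks collided ribosomes, rose by 0.15 on the log2 scale, Zfp638 by 0.11 and Zfp106 by 0.09. Zfp207 (0.05), Zfp622 (0.13), Zfp593 (0.04), Zfp346 (0.04) and Zfp326 (-0.02) did not pass the test.

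Of 7 genes of neural development, Zfp335 and Zfp24 were higher and Zfp365 was lower (42.9% called, median 0.059). Zfp335, a gene of neural progenitors linked to microcephaly, went from 25.5, 25.5 and 24.1 CPM to 32.1, 32.5 and 31.5 CPM, without overlap, and rose by 0.35 on the log2 scale (edgeR's adjusted p = 4.6e-05). Zfp24, which is needed for myelination, rose by 0.24. Zfp365, which is expressed in neurons, fell by 0.10. Zfp423, Zfp503, Zfp703 and Zfp462 did not pass, with log2 differences of 0.06, 0.19, -0.15 and 0.06.

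Of the 6 members listed for imprinting and silencing of retroelements, 3 rose and 2 fell (median 0.15). Zfp568, a KRAB protein that represses a placental transcript of Igf2, had 47.8, 48.9 and 47 CPM in untransfected cells and 70.6, 68.9 and 73.2 CPM with the ASO. The 18 transfected samples lay between these groups, at 51.6 to 63.5 CPM, and the log2 difference of ASO from untransfected cells was 0.56 ± 0.04 (SE, edgeR's adjusted p = 2.4e-11). Zfp809, which silences retroviruses by binding their primer binding site, rose by 0.36 on the log2 scale, and Zfp961 rose by 0.30. Both proteins that protect imprints from loss of methylation were lower. Zfp57 had 23.4, 23.4 and 21.2 CPM in untransfected cells and 17.6, 16.5 and 18.9 CPM with the ASO and fell by 0.36 (edgeR's adjusted p = 0.00013). Zfp445 had 128, 127 and 128 CPM against 122, 116 and 118 CPM and fell by 0.11 (edgeR's adjusted p = 0.0032). In both genes the 3 ASO samples were the lower ones. Zfp932 had a log2 difference of 0.0013 and did not pass.

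Among 17 chromatin and transcription cofactors, 8 rose and 3 fell (64.7% called, median 0.15). The lists were not compared with the other members by a test. Zfp592, a partner of Zmynd8, rose by 0.42 on the log2 scale, from 27.8, 28.5 and 28.7 CPM to 38.4, 37.7 and 37.7 CPM (edgeR's adjusted p = 3.2e-07), with the 3 ASO samples above the 3 untransfected ones. Zfp687, another partner of Zmynd8, fell by 0.18. Zfp827, which recruits the NuRD complex to telomeres, rose by 0.32, Zfp410, which activates the gene of the NuRD subunit Chd4, by 0.29, Zfp384 by 0.28 and Zfp609, a partner of the cohesin loader Nipbl, by 0.23. Zfp91, Zfp281 and Zfp148 rose by 0.15 to 0.16. Zfp219 fell by 0.20 and Zfp217, a subunit of a corepressor complex with the demethylase Lsd1, fell by 0.19.

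With the ASO, medians were close in members of both structural classes and spread widely between runs on the chromosomes. The median log2 difference was 0.10 for the 154 members with a KRAB pattern (51 higher, 12 lower) and 0.095 for the 131 without (49 higher, 13 lower). By number of fingers the median was 0.045 for 33 members with 0 to 3 fingers, 0.076 for 86 with 4 to 9, 0.10 for 105 with 10 to 14 and 0.12 for 61 with 15 or more. By level it was 0.10 for 48 members at 5 to 10 CPM, 0.11 for 90 at 10 to 20 CPM, 0.10 for 100 at 20 to 50 CPM and 0.052 for the 52 at 50 CPM or more. Members in runs had a median of 0.14 (37 higher, 5 lower of 92), and the 198 outside runs had 0.074 (63 higher, 21 lower). None of these differences between classes was tested.

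The run with the largest median stood on chromosome 7 and holds 14 members, of which 10 rose and 1 fell (median log2 difference 0.35). Zfp30, Zfp568, Zfp566, Zfp420, Zfp84, Zfp27, Zfp382, Zfp82, Zfp940 and Zfp146 rose, by 0.10 to 0.65 on the log2 scale. Zfp566 had 8.47, 7.85 and 10.3 CPM in untransfected cells and 11.4, 13.6 and 13.4 CPM with the ASO, and Zfp84 had 18.8, 20.9 and 21.7 CPM against 27.4, 26.6 and 27.5 CPM. In both genes the groups did not overlap. Zfp260 was the exception of the run, with 61.7, 57.1 and 56.5 CPM against 48.5, 49.1 and 52.2 CPM, a fall by 0.23 (edgeR's adjusted p = 0.00013). Zfp383, Zfp790 and Zfp74 did not pass.

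The run of 5 on chromosome 13 had a median of 0.32 and 3 rises (Zfp455, Zfp595 and Zfp759). Another run on chromosome 7, of 7 members, had a median of 0.27 and 4 rises, among them Zfp180, which went from 42.5, 45.4 and 43.5 CPM to 58.3, 56.1 and 56.4 CPM. The run of 17 on chromosome 17 had a median of 0.18 with 8 rises, led by Zfp758 (0.63), and 1 fall, Zfp820 (-0.20). Negative medians were found in 2 runs. The run of 7 on chromosome 17 had -0.054 and 0 calls by edgeR, and the run of 13 on chromosome 4 had -0.058, with 1 rise (Zfp984) and 3 falls (Zfp981, Zfp988 and Zfp933). Members of 1 run can share near-identical stretches, and reads that fit several genes were shared out between them by estimation, so that the counts of single genes in a run are uncertain.

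**Figure D4:**
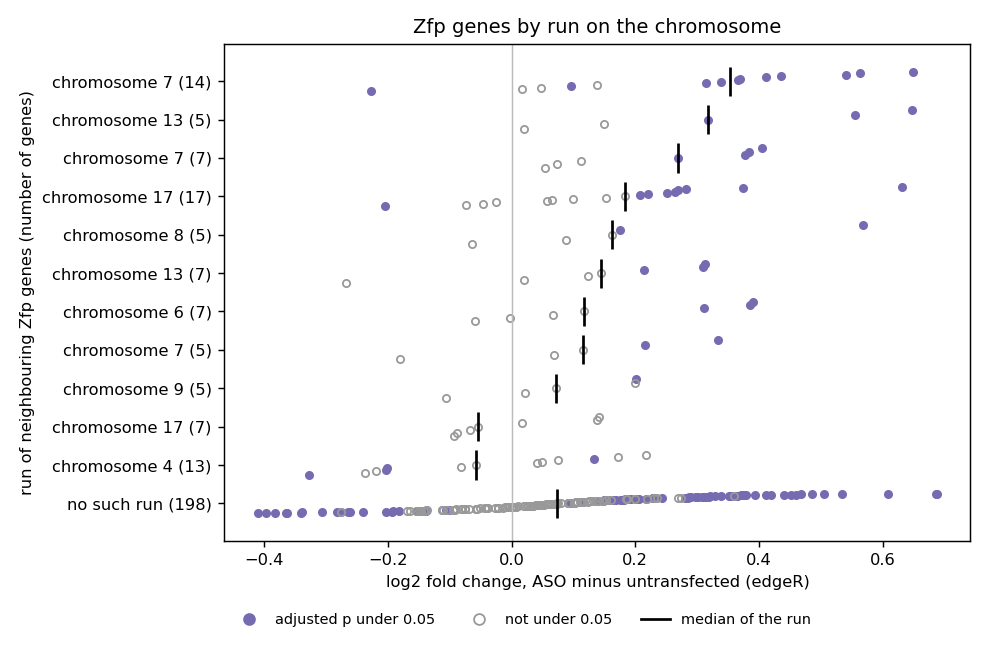
Each point is a Zfp gene, placed by its log2 fold change of ASO against untransfected cells (horizontal axis) in the row of its run of neighbouring Zfp genes on the chromosome; filled points passed edgeR's test and black bars are medians. The run of 14 on chromosome 7 lies mostly to the right (median 0.35), and the runs of 13 on chromosome 4 and of 7 on chromosome 17 lie around -0.05.

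The machinery that KRAB proteins recruit moved in both directions with the ASO. Of 16 genes, 6 rose and 7 fell (median log2 difference -0.055), against 42.7% of all tested genes called in either direction. Trim28, the corepressor that binds the KRAB domain, rose by 0.13 on the log2 scale, Setdb1 by 0.11 and Morc2a, a chromatin compactor that works with the HUSH complex, by 0.35. Cbx5, a heterochromatin protein, fell by 0.38, Cbx3 by 0.21 and the HUSH subunits Tasor and Mphosph8 by 0.37 and 0.26. In untransfected and ASO samples, Trim28 had group means of 344 and 377 CPM and Cbx5 of 930 and 716 CPM.

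The class median of the ASO comparison was above 0 in each of 4 classes of GC content. For members under 40% GC it was 0.065 (71 members; -0.009 for the 536 tested genes of that GC), at 40 to 45% it was 0.11 (78 members; 0.0008), at 45 to 50% it was 0.073 (55 members; 0.0087) and at 50% or more it was 0.11 (82 members; -0.018). With the ASO libraries thinned to 15041559 counts each, 95 members were higher and 26 lower, with a median of 0.092. The 11 markers of other cells summed to 26 to 29.1 CPM in ASO samples and 25.5 to 31.2 CPM in untransfected ones. Among them Cd68 rose and Mbp fell, and of the 9 neuroblast markers tested 4 rose and 3 fell. Their part in the result was not tested.

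The comparison of NTG with untransfected cells asks what transfection and expression of an effector change without the mATXN2 crRNA. It shares the untransfected samples with the ASO comparison. A smaller share of members than of all tested genes passed the test. For RfxCas13d 15 members were higher and 5 lower (6.9%, against 11.3% of tested genes, with 5.6% higher and 5.66% lower). For HiFi-RfxCas13d 29 were higher and 13 lower (14.5%, against 20.9% of tested genes, with 10.3% higher and 10.6% lower), and for DiCas7-11 37 were higher and 11 lower (16.6%, against 21.9%, with 11.1% higher and 10.8% lower). The class medians were 0.017, 0.026 and 0.042, with -0.0046, -0.0054 and -0.0062 over all tested genes. Corrected for GC content, the class medians became 0.0050, 0.0047 and 0.025, and the calls became 24 higher and 19 lower for HiFi-RfxCas13d and 30 higher and 18 lower for DiCas7-11.

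For RfxCas13d with the NTG crRNA, the largest rises were in Zfp455 (log2 difference 0.44), Zfp109 (0.40), Zfp84 (0.27) and Zfp420 (0.26), and the largest falls in Zfp444 (-0.37), Zfp981 (-0.31), Zfp575 (-0.28) and Zfp316 (-0.24). Zfp84 and Zfp420 both belong to the run of 14 on chromosome 7. Zfp420 had 16.4, 17.4 and 17 CPM in untransfected cells and 20.5, 20.4 and 20 CPM with the NTG crRNA, with no overlap. Zfp316 was 26.1 to 26.8 CPM in untransfected cells and 22.4 to 22.5 CPM in this arm, so that all 3 samples were lower.

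For HiFi-RfxCas13d the leading rises were Zfp36 (0.46), Zfp882 (0.46), Zfp827 (0.43) and Zfp455 (0.35), and the leading falls Zfp575 (-0.44), Zfp169 (-0.42), Zfp273 (-0.40) and Zfp395 (-0.38). Zfp882 had 12.9, 13.5 and 12.8 CPM in this arm, above all 3 untransfected samples and below all 3 ASO samples. Zfp395 had 22.7, 24.5 and 24.7 CPM, which overlaps the range of the ASO samples (22.2 to 24.8 CPM).

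For DiCas7-11 the leading rises were Zfp965 (0.44), Zfp777 (0.39), Zfp345 (0.38) and Zfp566 (0.38), and the leading falls Zfp558 (-0.49), Zfp775 (-0.41), Zfp395 (-0.39) and Zfp949 (-0.36). Zfp965 rested on 1 library, with 20.5, 19.5 and 29.5 CPM against 13.3, 20.2 and 17.8 CPM in untransfected cells, and the groups overlapped. They overlapped for Zfp775 as well. Zfp777 had 21.6, 19 and 18.7 CPM against 16.4, 14.6 and 14.1 CPM, with no overlap.

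Counts by role follow for the NTG arms of RfxCas13d, HiFi-RfxCas13d and DiCas7-11, in this order. Of all tested genes, 5.6%, 10.3% and 11.1% were higher and 5.66%, 10.6% and 10.8% lower. Of all members, 5.17%, 10% and 12.8% were higher and 1.72%, 4.48% and 3.79% lower. The lists were not compared with these shares by a test. Of the 9 RNA and translation members, 1, 3 and 1 were higher and 0 lower by edgeR. Of the 6 members for imprinting and retroelements, 1, 2 and 2 were higher and 0 lower, and Zfp568 passed in DiCas7-11 with a log2 difference of 0.30. Of the 17 chromatin cofactors, 2, 5 and 4 rose and 0, 2 and 1 fell, and of the 7 neural members 2, 2 and 1 rose and 1, 0 and 2 fell.

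The comparison of mATXN2 with NTG asks what targeting ataxin-2 changes beyond the effector itself. Few members changed. For RfxCas13d edgeR called 0 of 290 (1.39% of tested genes were called), DESeq2 1 and limma-trend 13, and 39 (13.4%) had an unadjusted p under 0.05, against 13.8% of tested genes. For HiFi-RfxCas13d edgeR called 0 (0.295% of tested genes), DESeq2 0 and limma-trend 1, and 14 (4.83%) had an unadjusted p under 0.05, against 7.45%. The members with the smallest p did not pass. They were Zfp68 (119, 113 and 109 CPM with NTG, 105, 103 and 105 CPM with mATXN2, edgeR's adjusted p = 0.0605) and Zfp959 (14.4, 13.9 and 13.8 CPM against 11.5, 10.9 and 11.6 CPM, edgeR's adjusted p = 0.0657) for RfxCas13d. For HiFi-RfxCas13d they were Zfp965 (13.9, 18.3 and 13.2 CPM against 19.6, 21.3 and 23.1 CPM, edgeR's adjusted p = 0.321) and Zfp646 (51.9, 54.3 and 52.6 CPM against 57.6, 56.3 and 59.7 CPM, edgeR's adjusted p = 0.416). In all 4 genes the samples of the 2 arms did not overlap.

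For DiCas7-11, 3 members rose and 1 fell (1.38%, against 0.942% of tested genes). Zfp444 had 12.6, 12.1 and 14.2 CPM with NTG and 17.4, 18.5 and 16.2 CPM with mATXN2, without overlap (log2 difference 0.41, edgeR's adjusted p = 0.0383). Zfp672 had 31.9, 28.5 and 28.6 CPM against 35.7, 43.7 and 37 CPM, again with the mATXN2 samples higher (0.39, edgeR's adjusted p = 0.0325). Zfp629 had 32.2, 29 and 29 CPM against 37.9, 38.4 and 35.8 CPM, and all 3 mATXN2 samples were higher (0.31, edgeR's adjusted p = 0.0236). Zfp985, a KRAB gene of the run on chromosome 4, had 70.9, 84.8 and 77.4 CPM against 68.8, 71.2 and 63.8 CPM (-0.20, edgeR's adjusted p = 0.0453), and the 2 arms overlapped. These calls turned on single libraries. Without replicate 1 of the NTG arm 13 members were called, without replicate 2 or replicate 3 of that arm 0 and 2, and without replicate 1, 2 or 3 of the mATXN2 arm 0, 2 and 1.

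Averaged over the 3 effectors, 3 members rose and 4 fell with the mATXN2 crRNA (2.41%, against 5.19% of tested genes). Zfp169 (log2 difference 0.30), Zfp672 (0.21) and Zfp646 (0.10) rose, and Zfp992 (-0.20), Zfp978 (-0.19), Zfp945 (-0.13) and Zfp207 (-0.07) fell. Zfp646 had 51 to 54.3 CPM in the 9 NTG samples and 53.2 to 59.7 CPM in the 9 mATXN2 samples, so that the ranges overlapped in part. Without replicate 1 of the NTG arm of DiCas7-11, 18 members were called, and without replicate 3 of the mATXN2 arm of RfxCas13d or of HiFi-RfxCas13d 4 were.

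None of the 4 role lists had a called member for any single effector by edgeR, and in the average over effectors Zfp207 was the 1 call among them. With 0.295% to 1.39% of all tested genes called for a single effector and 5.19% in the average, these counts are near the background for lists of this size.

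The class as a whole lay slightly below 0 with the mATXN2 crRNA. The median log2 difference was -0.030 for RfxCas13d (37.2% of members above 0), -0.016 for HiFi-RfxCas13d (42.1%) and -0.016 for DiCas7-11 (44.8%), with 0.0016, -0.001 and -0.00098 over all tested genes. The medians moved with GC content. For RfxCas13d the median was -0.089 in members under 40% GC and 0.031 in those at 50% or more, and over all tested genes it was -0.058 and 0.021. For DiCas7-11 it was -0.093 and 0.055, and over all tested genes -0.081 and 0.029. For HiFi-RfxCas13d it was -0.022 and -0.0095, and over all tested genes -0.022 and 0.0017. Corrected for GC content, the class medians were -0.0097 for RfxCas13d and 0.013 for DiCas7-11, where the sign turned. The part of GC content in the result was not tested further.

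**Figure D5:**
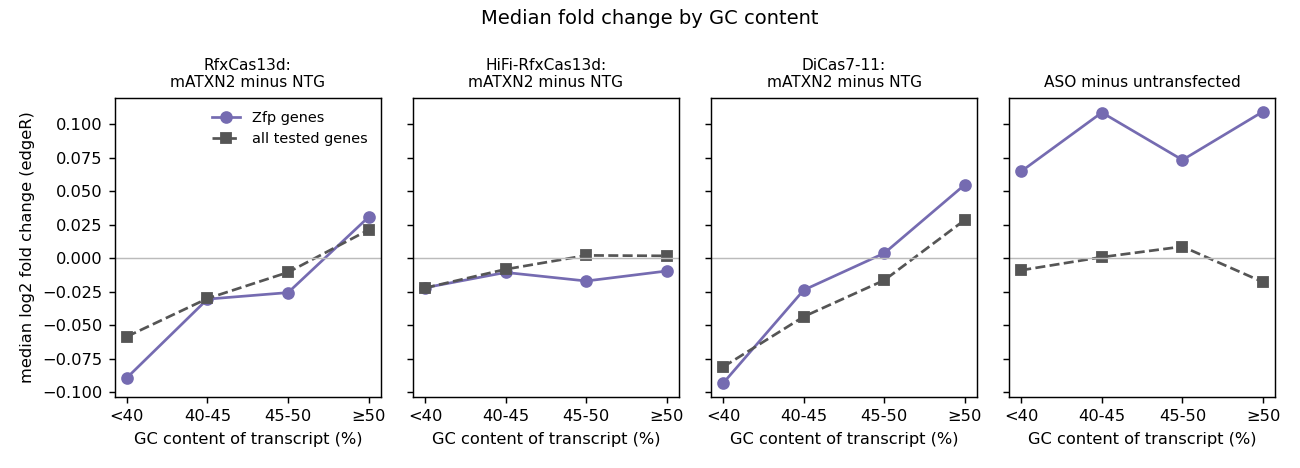
Median log2 fold change (vertical axes) in 4 classes of transcript GC content (horizontal axes, in percent) for Zfp genes (circles) and all tested genes (squares), for the 3 crRNA comparisons and for ASO against untransfected cells. In the RfxCas13d and DiCas7-11 panels both lines climb from under 40% GC (-0.089 and -0.093 for Zfp genes) to 50% or more (0.031 and 0.055), and in the ASO panel the Zfp genes lie above all tested genes in each class.

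The KRAB members have the lower GC content. Their median was -0.048 for RfxCas13d and -0.035 for DiCas7-11, and that of the members without the pattern was -0.003 and 0.014. In the run of 13 on chromosome 4, every member had a negative log2 difference with DiCas7-11, between -0.37 and -0.12 with a median of -0.23. Zfp985 was the 1 member of the run that passed the test. Members of a run can share near-identical stretches and thus reads, which was not measured here, and the cause of the common direction was not tested.

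The effectors were compared over both crRNA arms, which asks whether the choice of effector matters. For HiFi-RfxCas13d against RfxCas13d 1 member rose and 1 fell (0.69%, against 3.33% of tested genes), Zfp367 (0.18) and Zfp395 (-0.22). For DiCas7-11 against RfxCas13d 19 rose and 2 fell (7.24% against 11.4%), led by Zfp282 (0.24), Zfp27 (0.22), Zfp821 (0.21) and Zfp41 (0.21), with falls in Zfp365 (-0.23) and Zfp395 (-0.17). For DiCas7-11 against HiFi-RfxCas13d 8 rose and 2 fell (3.45% against 7.05%), led by Zfp27 (0.24), Zfp41 (0.21), Zfp87 (0.20) and Zfp687 (0.19), with falls in Zfp931 (-0.34) and Zfp365 (-0.22). These comparisons share samples with one another.

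Zfp365 was lower with DiCas7-11 in both arms. It had 147, 139 and 142 CPM (NTG) and 138, 140 and 136 CPM (mATXN2) with DiCas7-11. It had 157 to 180 CPM in the 6 samples of RfxCas13d and 156 to 178 CPM in the 6 of HiFi-RfxCas13d. The 6 DiCas7-11 samples were lower than all of these and lower than untransfected cells, which had 150 to 156 CPM. Zfp41 had 28.1 to 30.7 CPM in the 6 DiCas7-11 samples, against 23.4 to 28.9 CPM for RfxCas13d and 23.1 to 26.4 CPM for HiFi-RfxCas13d.

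Whether the response to the crRNA differed between effectors was tested as an interaction, and edgeR, DESeq2 and limma-trend each called 0 members in the 3 pairs of effectors. By edgeR 0% of all tested genes passed. At an unadjusted p under 0.05 there were 20 members for HiFi-RfxCas13d against RfxCas13d (6.9%, against 6.15% of tested genes), 19 for DiCas7-11 against RfxCas13d (6.55% against 7.8%) and 27 for DiCas7-11 against HiFi-RfxCas13d (9.31% against 7.4%). The median differences of response were 0.017, 0.012 and -0.0036 on the log2 scale. The members with the smallest p, none of which passed, were Zfp407 and Zfp142, Zfp629 and Zfp235, and Zfp965 and Zfp26 for the 3 pairs. Zfp142, the member with the most fingers, had 40.9, 41.3 and 41.9 CPM with NTG and 47.5, 47.2 and 44.5 CPM with mATXN2 for RfxCas13d, and 44.9, 45.5 and 47.5 CPM against 44.6, 43.9 and 46.7 CPM for HiFi-RfxCas13d. The arms were apart in the former and overlapped in the latter.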

How the data were processed

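RNA-seq of 24 Neuro2A samples in 8 groups of 3 was analysed. The authors mapped single-end reads of a stranded mRNA kit with Salmon (version 1.5.2) to the NCBI mouse transcriptome (GRCm39), correcting each library for bias by sequence and by GC, and obtained gene values from transcripts with tximport (lengthScaledTPM), keeping multi-mapped reads; the submitters' notes also name R 4.2.2. What the authors deposited are expected counts of genes, without library-size scaling, and their estimation shares reads between near-identical genes.

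Expected counts were rounded to whole numbers. Genes with at least 0.5 CPM in 3 or more samples were tested (13901) with edgeR (version 4.0.16, R 4.3.3): TMM normalization, a quasi-likelihood fit of all 24 samples with a coefficient per group, and Benjamini-Hochberg adjustment within each of 14 comparisons, at 0.05. CPM per sample are TMM-scaled. Alternatives were DESeq2 (version 1.42.0), the study's limma-trend procedure (limma version 3.58.1, prior count 3, adjustment over 10 comparisons together), other size factors, no filter, a replicate block, GC and length corrections (lowess, span 0.3), only the samples compared, each library left out, and thinned ASO libraries, the last chosen after seeing the data. Scripts were tested on simulated data. Totals were 12665725 to 22504999 counts per sample.

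Length, GC content, the finger pattern and the KRAB pattern came from GENCODE M21, and gene order and promoters from RefSeq, both on GRCm38 and thus another build than the authors', matched by Entrez identifier. The fingers were counted as C2H2 spacings of 2 to 4, 12 and 3 to 5 residues.

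Members, lists and comparisons were chosen with earlier results of these data known. Named in the text are the 4 largest rises and falls per comparison among called members with a mean of at least 50 counts, or the 2 smallest p where fewer than 2 were called, the 5 highest members, the 3 genes on each side of the threshold, the role lists, and Atxn2. Other members were named after their values were seen, for their run, promoter or class. Single values of some cell type markers are not reported here.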

Additional observations from a re-analysis of the deposited data

How the results depend on the processing

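The class median and the number of members called with the ASO kept their direction and stayed within 1.5 times under every alternative run. The class median was 0.09 to 0.10 without 1 library each, with 109 to 118 members called, and 0.092 with 121 called after thinning. Other calls depended on the processing, and the cause was not tested. Without the filter on low counts, which changes the number of genes tested, the members called with mATXN2 were 3 for RfxCas13d, 1 for HiFi-RfxCas13d, 10 for DiCas7-11 and 12 for the mean of effectors. They were 5 for HiFi-RfxCas13d against RfxCas13d, 19 for DiCas7-11 against HiFi-RfxCas13d, and 1 and 2 for the interactions of these pairs. With DESeq2 the crRNA calls were 1 for RfxCas13d and 1 for DiCas7-11, and with limma-trend 13 (RfxCas13d), 1 (HiFi-RfxCas13d) and 12 (DiCas7-11). With only the samples compared they were 1, 1 and 0, and 27 for DiCas7-11 NTG and 4 for HiFi-RfxCas13d against RfxCas13d.

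Corrected for GC content, the crRNA medians were -0.0097 (RfxCas13d), 0.013 (DiCas7-11, with 1 call, reversed) and -0.0028 (mean), the NTG medians 0.0050 (RfxCas13d), 0.0047 and 0.025, that of HiFi-RfxCas13d against RfxCas13d -0.0079, and the interaction medians -0.00027 (HiFi-RfxCas13d against RfxCas13d, reversed) and 0.017 (DiCas7-11 against HiFi-RfxCas13d).

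Same-numbered samples of different groups had a median correlation of deviations of 0.136, with 56 of 84 pairs over 0.1 and a lowest of -0.22, against -0.078 and 29 of 168 pairs for different numbers, and 19 of 24 samples correlated best with their own number. This is a hint from the data that a number marks something shared, but the labels name no shared day or batch and not every pair was over 0.1, so the numbers were not taken to pair the samples. With the replicate block 1 member was called for RfxCas13d with mATXN2 and 4 for HiFi-RfxCas13d against RfxCas13d, and other counts stayed within 1.5 times.

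Without 1 library each, members called were 0 to 1 (RfxCas13d mATXN2), 0 to 13 (DiCas7-11 mATXN2), 4 to 18 (mean of effectors), 10 to 18 (RfxCas13d NTG, lowest without NTG replicate 1 and also 12 and 13 without untransfected replicate 1 and NTG replicate 2), 23 to 36 (HiFi-RfxCas13d NTG, 23 without untransfected replicate 1 and 26 without NTG replicate 3), 31 to 56 (DiCas7-11 NTG, 31 without NTG replicate 2) and 2 to 5 (HiFi-RfxCas13d against RfxCas13d, 4 without RfxCas13d NTG replicate 3 and 5 without HiFi-RfxCas13d mATXN2 replicate 3). Medians were -0.025 to -0.0026 (HiFi-RfxCas13d mATXN2, nearest to 0 without NTG replicate 3), 0.014 to 0.025 (RfxCas13d NTG, highest without untransfected replicate 2) and -0.00012 to 0.019 (interaction of DiCas7-11 with RfxCas13d, reversed without DiCas7-11 NTG replicate 1). With members of at least 1 or 10 CPM the ASO calls were 136 of 331 and 107 of 242. Of the values of single named members under all alternatives, 1021 stayed on the same side of the threshold, called or not, 120 lost a call and 9 gained one, and 0 changed direction.

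Of the 48 members at 5 to 10 CPM, 19 were called with the ASO (39.6%), against 53.8% of the 52 at 50 CPM or more.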

Other observations

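Other zinc finger families were measured with the ASO as well, where 21% of all tested genes were higher and 21.7% lower. Of 40 Zbtb genes, in which the fingers go with a BTB domain, 20 rose and 4 fell (median log2 difference 0.20). Of 10 Zkscan genes 2 rose and 1 fell (median -0.018), and of 11 Zscan genes 2 rose and 1 fell (median 0.026). Differences between the families were not tested.

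mRNAs known for their stability were counted with the ASO as well, where 42.7% of all tested genes were called. Of 16 mRNAs known as short-lived, 8 rose and 3 fell (median 0.084), among them Fos (0.67), Klf6 (0.61), Atf3 (0.47) and Junb (0.38), which rose, and Ier3 (-0.90), Btg2 (-0.87) and Gadd45b (-0.37), which fell. Of 88 mRNAs known as long-lived, of glycolytic enzymes and cytosolic ribosomal proteins, 1 rose and 71 fell (median -0.13). The difference between these lists was not tested. The long-lived list was lower in the NTG arms too, where 42, 54 and 52 of its genes fell and 1 rose for RfxCas13d, HiFi-RfxCas13d and DiCas7-11, which share the untransfected samples with the ASO comparison. Of all tested genes, 5.66%, 10.6% and 10.8% fell in these arms and 5.6%, 10.3% and 11.1% rose. With mATXN2 against NTG, 13 genes of the list rose and 0 fell for RfxCas13d by edgeR, 1 and 0 for HiFi-RfxCas13d, and 2 rose and 1 fell for DiCas7-11. Of all tested genes, 0.914%, 0.281% and 0.554% rose and 0.475%, 0.0144% and 0.388% fell in the same order. No half-life was measured in these samples.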
